A study of Aspergillus luchuensis with 9 samples.

Results

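Genes silent in the control strain were followed in poly(A)-enriched RNA-seq libraries of a koji mould, Aspergillus luchuensis mut. kawachii, to see whether loss of a chromatin regulator switched them on. A gene counted as silent when it carried a chromosomal locus tag, stood under 1 FPKM in each of the 3 control libraries and lay more than 100 kb from the first and last gene of its chromosome. FPKM scales a fragment count by the length of the transcript and by the size of the library. This rule found 2420 genes of the 12941 in the deposited table, or 19.7% of the 12267 that lie away from the chromosome ends. The 3 groups were a control, a hepA deletion (ΔhepA) and a laeA deletion (ΔlaeA), all labelled mut. kawachii, with 3 libraries each. Culture medium, age, the markers of the host strain and the number of transformants behind each deletion are not given in the sources used here. Whether replicates came from separate cultures is not given either, so the spread between libraries may be technical. The gene table used here lists no symbol hepA or laeA, so the deletions themselves were not read out.

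In filamentous fungi many genes of secondary metabolism, plant cell wall breakdown and sexual development are kept off in ordinary growth and are used only under particular conditions. Heterochromatin, marked by methylated histone H3 and bound by heterochromatin protein 1, is a well known means of keeping such genes off, and HepA is the Aspergillus homologue of that protein. LaeA is a nuclear methyltransferase-like protein that acts with the velvet proteins and is best known as an activator of secondary metabolite clusters. In Aspergillus nidulans, loss of HepA raises some clusters, and loss of LaeA lowers many.

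Almost none of the silent genes were switched on in either deletion strain. Switched on was defined as at least 5 FPKM in all 3 libraries of the strain. In ΔhepA 0 of 2420 silent genes met this (0.0%), and in ΔlaeA 1 did (0.0413%). Among all 12267 genes away from the ends, 57.9% stood at 5 FPKM or more in every control library, 55.4% in every ΔhepA library and 52.9% in every ΔlaeA library. No gene was switched on in both strains, and no switched-on gene lay beside another. Of the 255 silent genes within 100 kb of an end (40.5% of the 630 genes there), 0 reached 5 FPKM in all 3 libraries of either strain. Since the control values chose the genes, each contrast with the control is a description and was given no test.

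The silent genes differed from the rest of the genome in kind. They comprised 2183 protein-coding genes, which is 18.2% of the 12020 such genes away from the ends, 236 of 237 tRNA genes (99.6%) and 1 of 10 rRNA genes. Transfer RNA carries no poly(A) tail and is also very short, so poly(A)-enriched libraries say little about it. Silent protein-coding genes had a median transcript length of 1076 bases, against 1367 bases for the other protein-coding genes. Of the silent ones 26.4% were under 600 bases long, against 12% of the others. A gene symbol was given for 64 of them (2.93%), against 2145 of the 9837 others (21.8%). The longer of the gaps to the neighbouring genes had a median of 1392 bases beside silent and 1244 bases beside other protein-coding genes.

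Silent genes lay next to each other. Of the 2420, 1561 (64.5%) had a silent gene directly beside them, whereas 2412 of the 9847 other genes away from the ends (24.5%) did. Runs of at least 4 silent genes in a row numbered 122 and held 631 genes (26.1%). The longest run held 15 genes, AKAW2_80731A to AKAW2_80745A, on chromosome 8 from 2042873 to 2086600 (43.7 kb, in the coordinates of the deposited table). Its highest value in any ΔhepA library was 1.75 FPKM and in any ΔlaeA library 5.79 FPKM. That high value came from AKAW2_80741A, which stood at 0.83, 0 and 0 FPKM in the control, 0.74, 0 and 1.57 in ΔhepA and 2.45, 1.14 and 5.79 in ΔlaeA. The next run, AKAW2_12030A to AKAW2_12039S on chromosome 1, held 10 genes and stayed at or under 0.6 FPKM in ΔhepA and 0.87 FPKM in ΔlaeA. By chromosome the silent share ran from 13.7% on chromosome 7 to 26.6% on chromosome 5.

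**Figure D1:**
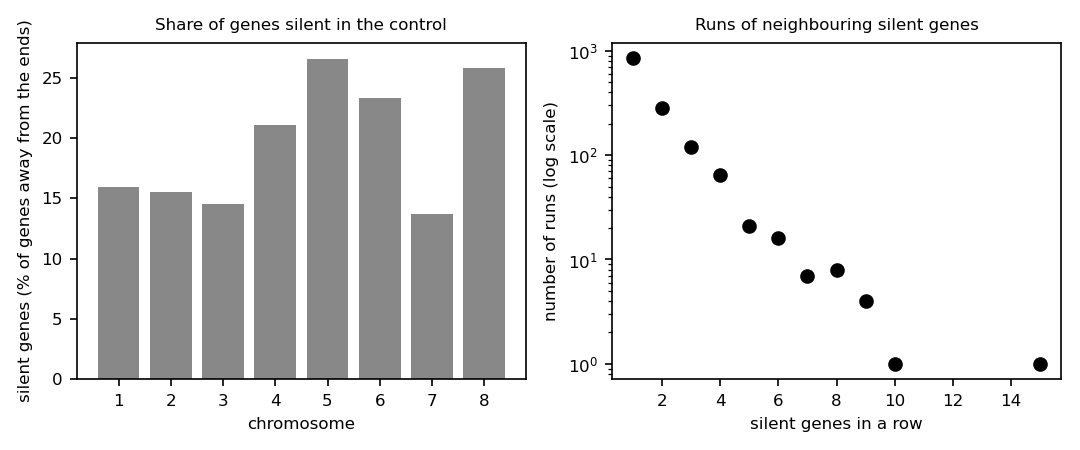
Left, the bars give the silent genes as a percentage of the genes away from the ends on each of the 8 chromosomes. Right, the points give the number of runs of neighbouring silent genes (log axis) by the number of genes in the run. Shares lie between 13.7% and 26.6%, and the longest run holds 15 genes.

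Most silent genes stayed silent in every library. Of the 2420, 1817 (75.1%) were under 1 FPKM in all 9 libraries and 772 (31.9%) were listed at 0 in all 9. The same rule applied to the deletion strains gave sets of similar size, 2460 genes silent in ΔhepA and 2408 in ΔlaeA. The control set and the ΔhepA set shared 2047 genes, or 84.6% of the control set and 83.2% of the ΔhepA set. With ΔlaeA the control set shared 1985 genes, or 82% of the control set and 82.4% of the ΔlaeA set.

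Depth and library quality bear on values this low. Taken from the steps between low values, depth relative to the deepest control was 0.841 to 1 in the control, 0.898 to 1.035 in ΔhepA and 0.519 to 0.969 in ΔlaeA. ΔlaeA replicates 2 and 3 were the shallowest, at 0.66 and 0.519. These libraries and ΔhepA replicate 2 lie apart from the other 6, with 2.85% to 7% of summed FPKM from mitochondrial genes against 1.09% to 1.66%. The smallest step, which stands for about 1 fragment, was 3.82 FPKM for genes of 150 to 300 bases, 1.79 for 300 to 450 bases and 0.433 for 600 to 900 bases. It was 0.0788 FPKM for genes of 2400 bases or more. A value of 5 FPKM therefore rests on about 1.3 fragments in the shortest of these classes and about 63 in the longest.

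A control library that was not used to choose genes also held some of them at 5 FPKM or more. When control replicate 1 was held out, 2687 genes were under 1 FPKM in the other control libraries, and 21 of them stood at 5 FPKM or more in the held-out library. In the same genes ΔhepA replicates 1 to 3 gave 9, 19 and 15, and ΔlaeA replicates 1 to 3 gave 9, 38 and 40. Holding out control replicate 2 gave 27 genes there, against 9 to 22 in ΔhepA and 15 to 45 in ΔlaeA. Holding out control replicate 3 gave 10, against 13 to 18 in ΔhepA and 16 to 35 in ΔlaeA. Every ΔhepA library thus gave fewer genes than held-out control replicates 1 and 2, and more than held-out control replicate 3. The same held for ΔlaeA replicate 1. ΔlaeA replicates 2 and 3 were above the held-out control each time. The part of depth and mitochondrial share in those counts was not tested.

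**Figure D2:**
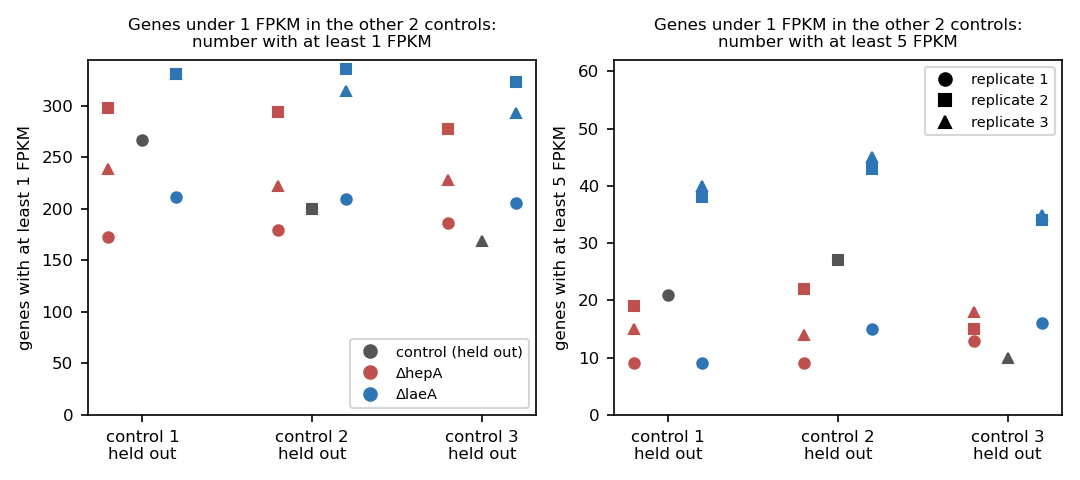
The points give the number of genes under 1 FPKM in the other control libraries that reached 1 FPKM (left) or 5 FPKM (right) in the held-out control library and in each ΔhepA and ΔlaeA library. Shapes mark replicates. At 5 FPKM the held-out controls gave 10 to 27 genes, and ΔlaeA replicates 2 and 3 gave 34 to 45.

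With the full set of 2420 genes the 2 deletion strains could be compared with each other, since that contrast does not use the control values. Silent genes at 1 FPKM or more numbered 124, 217 and 159 in ΔhepA replicates 1 to 3 and 140, 249 and 247 in ΔlaeA. The means were 166.7 ± 47.0 and 212 ± 62.4 genes (SD, n = 3 each), and the groups overlapped (two-sided exact permutation p = 0.3; 0.1 is the smallest p that 3 against 3 can give). Silent genes at 5 FPKM or more numbered 7, 10 and 11 in ΔhepA and 6, 24 and 28 in ΔlaeA (9.3 ± 2.1 and 19.3 ± 11.7; exact permutation p = 0.4, n = 3 each). Without the 3 libraries that lie apart, 1 ΔlaeA library remains against 2 of ΔhepA (140 against 124 and 159 genes at 1 FPKM, and 6 against 7 and 11 at 5 FPKM). The differences of -1.5 and -3.0 genes (ΔlaeA minus ΔhepA) then rest on that 1 library and have no test. Silent genes listed at 0 were fewer in every ΔhepA library (1550, 1362 and 1484) than in any ΔlaeA library (1602, 1605 and 1739), with an exact permutation p of 0.1 (n = 3 each). Over all genes away from the ends the order was the same, at 1886, 1677 and 1791 in ΔhepA and 1919, 1990 and 2333 in ΔlaeA. Those counts include the silent genes. The shallowest ΔlaeA library listed the most genes at 0, whereas the shallowest ΔhepA library, replicate 2 at a relative depth of 0.898, listed the fewest. The part of depth in these counts was not tested.

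The gene switched on in ΔlaeA, AKAW2_30784S, lies on chromosome 3 at 2351494 to 2351778 on a transcript of 285 bases, and no symbol is given for it. It was listed at 0 in the 3 control libraries, at 2.57, 0 and 2.74 FPKM in ΔhepA and at 9.15, 11.54 and 14.84 FPKM in ΔlaeA. Every ΔlaeA library was thus above every other library. After correction for depth these values were 1, 0 and 1.01 times the smallest value in ΔhepA and 3.33, 2.86 and 2.9 times in ΔlaeA, so each ΔlaeA value rests on about 3 fragments if the smallest value is 1 fragment. Between the deletion strains the difference was 2.41 on the log2(FPKM + 1) scale (SE 0.49), and it did not pass limma's test across all 10009 genes tested (adjusted p = 0.165). The control values, which chose the gene, enter that SE. In a fit on the deletion strains alone limma's adjusted p was 0.335. Over the alternatives the limma adjusted p ran from 0.0457 to 0.943, and it passed only without ΔlaeA replicate 1. That fit keeps the shallowest ΔlaeA libraries and called 269 genes in all instead of 5. Without ΔlaeA replicate 2 it was 0.581 and without replicate 3 it was 0.251.

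Its neighbours were not switched on. AKAW2_30783S, on its left, is also silent and stood at 0.45, 0.51 and 0 FPKM in the control, 0, 1.89 and 0.87 in ΔhepA and 1.33, 2.56 and 2.44 in ΔlaeA. It too was higher in ΔlaeA replicates than in the control, at a level under the 5 FPKM threshold. AKAW2_30782A, further left, was listed at 0 in all 9 libraries, and AKAW2_30785A, on the right, stayed at or under 0.26 FPKM. AKAW2_30786S, the next gene, is not silent and stood between 3.36 and 7.1 FPKM in every library.

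**Figure D3:**
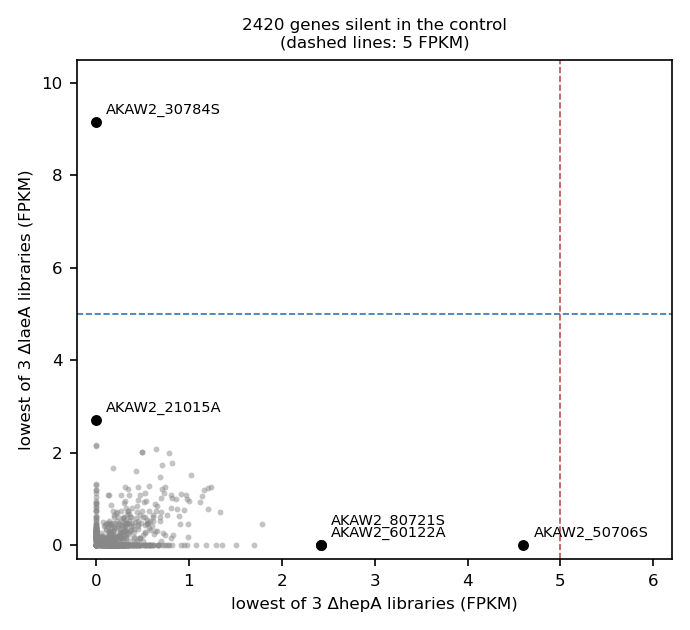
Each point is 1 of the 2420 silent genes, at the lowest FPKM among its 3 ΔhepA libraries (horizontal) and among its 3 ΔlaeA libraries (vertical). Dashed lines mark 5 FPKM. AKAW2_30784S is above the ΔlaeA line at 9.15 FPKM, and AKAW2_50706S comes closest to the ΔhepA line at 4.6 FPKM.

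Just under the threshold in ΔhepA, AKAW2_50706S stood at 5.78, 6.63 and 4.6 FPKM, against 0 in all 3 control libraries and 0, 0 and 2.78 FPKM in ΔlaeA. It lies on chromosome 5 at 2153832 to 2154185, and every ΔhepA library was above every other library. After correction for depth its ΔhepA values were 4.15, 4.13 and 3.12 times its smallest value. They rest on about 3 or 4 fragments each if that value is 1 fragment. AKAW2_60122A on chromosome 6 followed, with 6.3, 2.42 and 8.93 FPKM in ΔhepA, 0 in the control and 2.45, 3.15 and 0 in ΔlaeA. By the same measure its ΔhepA values were 3.14, 1.05 and 4.21 times its smallest value. AKAW2_80721S on chromosome 8 had 2.42, 7.4 and 2.56 FPKM in ΔhepA, but 0, 4.95 and 4.71 in ΔlaeA, so the deletion strains overlapped. In ΔlaeA the genes next under the threshold were AKAW2_21015A (6.25, 2.71 and 6.92 FPKM), AKAW2_50551S (2.31, 2.16 and 2.74) and AKAW2_81276S (2.99, 2.15 and 3.64). All 3 also reached 2.65 FPKM or more in a ΔhepA library. Counted at 1 FPKM or more in all 3 libraries, 19 of the 2420 silent genes passed in ΔhepA and 42 in ΔlaeA, a difference that was not tested. None of the 19 lay beside another, and among the 42 only AKAW2_30783S and AKAW2_30784S did. At 2 FPKM the counts were 3 and 7. The 7 include AKAW2_50475S and AKAW2_50521A, which have the same length of 700 bases and the same 9 values, so reads of these copies may have been shared between them and their separate levels are uncertain.

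The genes on both sides of AKAW2_50706S were higher in ΔhepA as well, and they missed the rule for silent genes narrowly. AKAW2_50705A stood at 0.39, 1.31 and 1.84 FPKM in the control, 28.47, 10.04 and 5.09 in ΔhepA and 1.13, 2.8 and 0.36 in ΔlaeA. AKAW2_50707S, whose transcript of 11940 bases gives a much finer scale, stood at 0.93, 1.49 and 1.34 FPKM in the control, 26.66, 11.9 and 5.18 in ΔhepA and 1.49, 1.96 and 0.81 in ΔlaeA. In both, all 3 ΔhepA libraries lay above the other 6, with replicate 1 highest and replicate 3 lowest. By the rule for genes just outside the threshold these were the nearest to 1 FPKM in the control among genes at 5 FPKM or more in ΔhepA. The third, AKAW2_51923S, stood at 1.76 to 2.24 FPKM in the control, 5.61 to 24.27 in ΔhepA and 4.06 to 13.25 in ΔlaeA.

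Seen with the genes beyond them, AKAW2_50706S lies in a group of 10 neighbours on chromosome 5, AKAW2_50705A to AKAW2_50714S, from 2151567 to 2190973 (39.4 kb). The borders of the group were set after the values were seen. In 9 of the 10 the lowest ΔhepA library was above the highest control, a pattern held by 4.73% of all genes away from the ends. The exception was AKAW2_50711S, at 24.61 to 46.06 FPKM in the control and 29.35 to 38.21 in ΔhepA. The 9 include AKAW2_50706S, which was chosen by its low control values. In 7 of the 10 the lowest ΔhepA library was also above the highest ΔlaeA library. Of all genes away from the ends, 4.12% had every ΔhepA library above every ΔlaeA library. Levels within the group differed widely. AKAW2_50713S stood at 84.8, 364.28 and 303.09 FPKM in the control and 2405.86, 1303.77 and 563.39 in ΔhepA, and AKAW2_50712A at 1.71, 4.06 and 5.39 against 53.56, 24.51 and 13.97. The ratio of the ΔhepA to the control mean was between 4.16 (AKAW2_50714S) and 12.3 (AKAW2_50705A) in the 8 genes that share the pattern and have a control value above 0.

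None of these differences passed the test across all genes. For the 9 members of the group that are not silent, limma called 0 against the control (0.05% of all 10009 genes tested were called higher in ΔhepA), with adjusted p from 0.076 to 0.981. At an unadjusted p under 0.05 there were 8, all higher in ΔhepA. Of the 10009 genes tested 10.4% passed that level in either direction, and 258 of the 10009 were higher. The 9 were picked with their values known. AKAW2_50707S, AKAW2_50709S and AKAW2_50712A were the closest, with log2(FPKM + 1) differences of 2.54, 2.47 and 2.63 (SE 0.497, 0.488 and 0.518; limma adjusted p = 0.076 each). For AKAW2_50706S the contrast of the deletion strains was -2.09 (ΔlaeA minus ΔhepA, SE 0.495, limma adjusted p = 0.232). The rule did not use the libraries in this difference, but the control values it used enter the SE. In a fit on the deletion strains alone limma's adjusted p was 0.437. The group ended at AKAW2_50704S on the left, at 20.21 to 25.79 FPKM in the control and 21.44 to 45.41 in ΔhepA. On the right it ended at AKAW2_50715A, a silent gene that stayed at or under 0.37 FPKM in all 9 libraries.

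**Figure D4:**
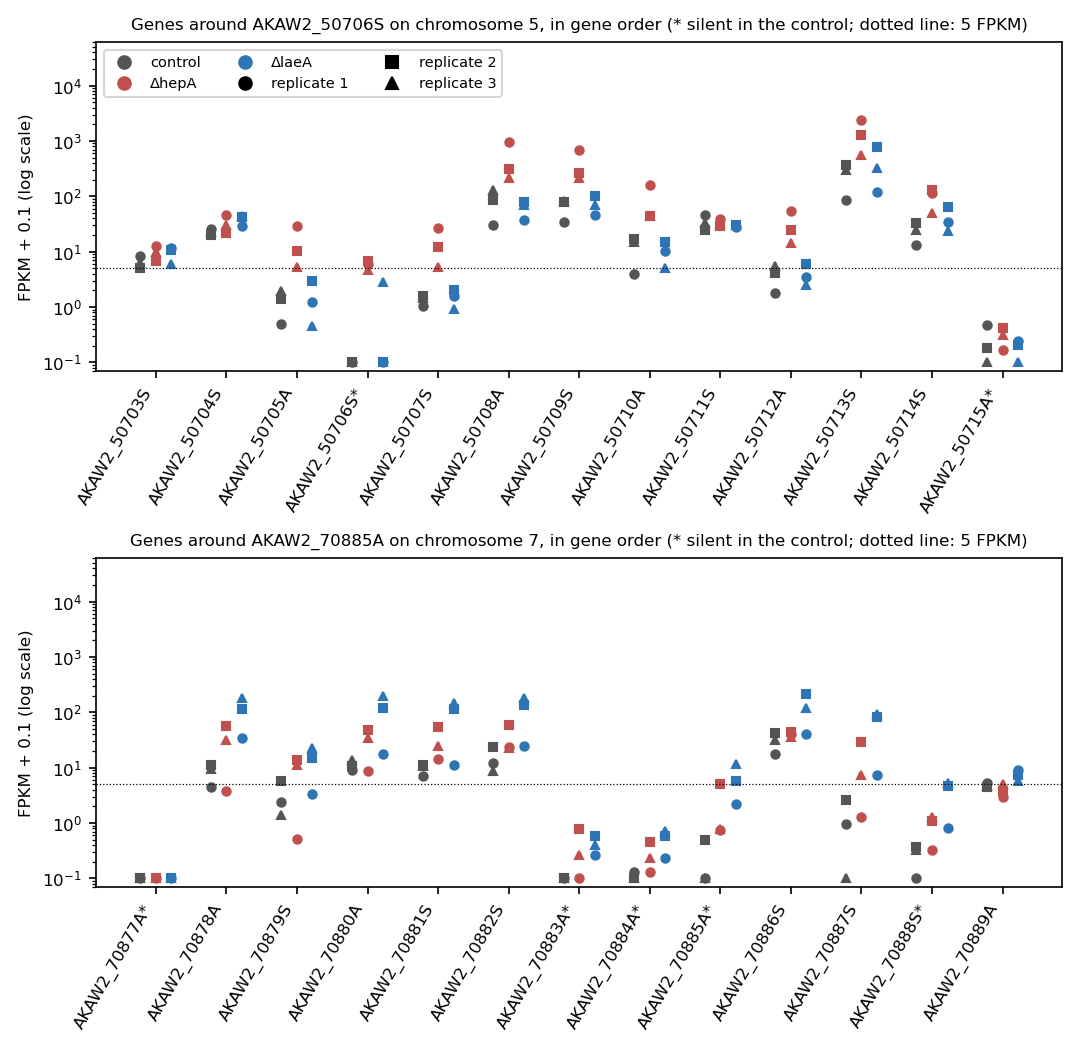
FPKM plus 0.1 (log axis) of neighbouring genes in each library, in gene order, around AKAW2_50706S on chromosome 5 (top) and AKAW2_70885A on chromosome 7 (bottom). Asterisks mark genes silent in the control and the dotted line 5 FPKM. In the top panel ΔhepA libraries lie above the control in 9 of 10 genes from AKAW2_50705A to AKAW2_50714S. In the bottom panel ΔlaeA replicates 2 and 3 and ΔhepA replicate 2 are the highest in 10 of 11 genes from AKAW2_70878A to AKAW2_70888S.

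A second neighbourhood with silent members, on chromosome 7, was mostly highest in the libraries that lie apart. AKAW2_70885A (2667761 to 2668579) stood at 0, 0.4 and 0 FPKM in the control, 0.65, 4.87 and 0.69 in ΔhepA and 2.09, 5.6 and 11.65 in ΔlaeA. AKAW2_70888S, also silent, stood at 0, 0.27 and 0.23 FPKM in the control, 0.22, 1.01 and 1.16 in ΔhepA and 0.7, 4.47 and 5.25 in ΔlaeA. In both genes ΔlaeA replicates 2 and 3 were the highest libraries.

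These genes belong to 11 neighbours, AKAW2_70878A to AKAW2_70888S (2650061 to 2673093, 23.0 kb), again bounded after the values were seen. The group holds 4 silent genes, of which AKAW2_70883A and the long AKAW2_70884A (7916 bases) stayed at or under 0.69 FPKM everywhere. In 10 of the 11 the 3 libraries that lie apart were above the other 6. The share of all genes with that order was not counted, so it cannot be called particular to this group. In 8 of the 11 the lowest ΔlaeA library was above the highest control, which 7.07% of all genes away from the ends did. The 8 include the 4 silent genes, which were chosen by their low control values, so the count is only a description. The members with that order that are not silent were AKAW2_70878A, AKAW2_70880A, AKAW2_70882S and AKAW2_70887S. AKAW2_70887S, not silent, stood at 0.88, 2.46 and 0 FPKM in the control, 1.2, 28.85 and 7.17 in ΔhepA and 7.28, 83.86 and 93.85 in ΔlaeA.

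For the 7 members of the chromosome 7 group that are not silent, limma called 0 in ΔlaeA against the control (0.17% of all tested genes were called higher), with adjusted p from 0.0664 to 0.293. At an unadjusted p under 0.05 there were 6, all higher in ΔlaeA. Of the 10009 genes tested 21.6% passed that level in either direction, and 754 of the 10009 were higher. The 7 members too were picked with their values known. Without ΔlaeA replicate 1 limma called 6 of the 7, AKAW2_70887S among them (adjusted p = 0.00662), and without ΔhepA replicate 1 it called AKAW2_70878A (adjusted p = 0.0291). Without the 3 libraries that lie apart the log2 difference of AKAW2_70887S was 2.15 instead of 4.44, with 1 ΔlaeA library left. The mitochondrial share given above moves with this group, and its part in the result was not tested.

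Reaching 5 FPKM in at least 2 libraries of a strain, a looser criterion chosen after seeing the data, gave 4 silent genes in ΔhepA and 10 in ΔlaeA, with AKAW2_60793A in both. The 4 were tfb5 (AKAW2_40143S), AKAW2_50706S, AKAW2_60122A and AKAW2_60793A. The gene tfb5, which encodes a small subunit of the transcription and DNA repair factor TFIIH, stood at 12.66, 0 and 13.78 FPKM in ΔhepA, 8.19, 0 and 0 in ΔlaeA and 0 in the control, on a transcript of 326 bases. Of the 10 in ΔlaeA, 8 were at 5 FPKM or more in replicates 2 and 3 and not in replicate 1. AKAW2_41089A, the longest at 2614 bases, stood at 0.1, 9.37 and 19.43 FPKM in ΔlaeA and also at 0.37, 14.84 and 2.32 in ΔhepA, against 0.2, 0.89 and 0 in the control. It was high in the 3 libraries that lie apart and at or under 2.32 FPKM elsewhere. AKAW2_11701A (0.76, 6.79 and 7.19 FPKM in ΔlaeA) and AKAW2_80496A (1.28, 5.3 and 8.89) stood at 2.01 FPKM or less in all ΔhepA libraries.

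**Figure D5:**
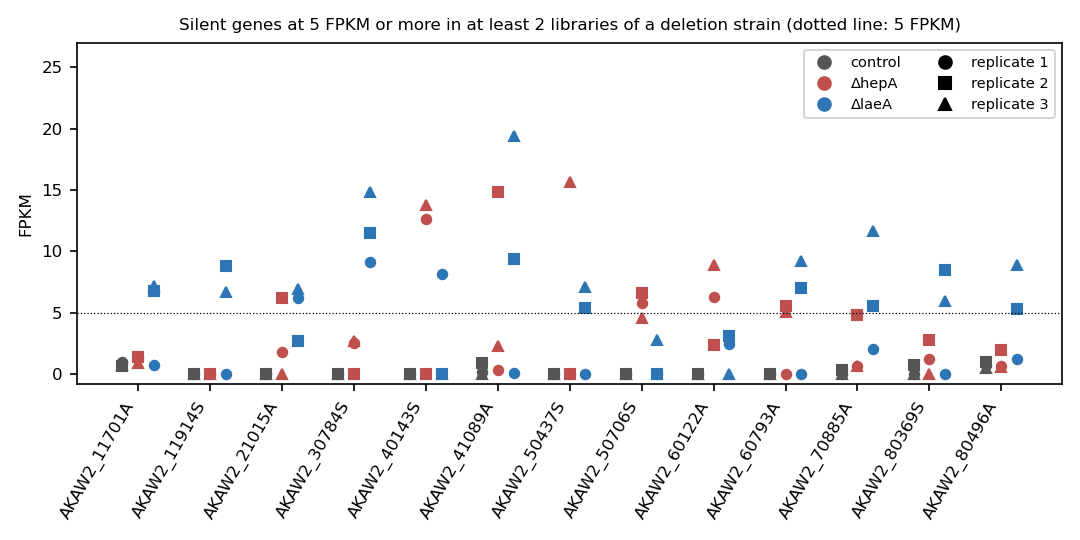
FPKM in each of the 9 libraries of the silent genes that reached 5 FPKM (dotted line) in at least 2 libraries of a deletion strain. Control points are all under 1 FPKM. Replicates 2 and 3 of ΔlaeA (squares and triangles) carry most of the high values, and AKAW2_30784S has all 3 ΔlaeA libraries above the line.

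In any deletion library 63 silent genes reached 5 FPKM. Of these 43 were under 600 bases long, 47 were high in exactly 1 library, and 50 were high in at least 1 of the 3 libraries that lie apart. The highest values were of tRNA genes, AKAW2_t80019A at 102.36 FPKM in ΔlaeA replicate 2 and AKAW2_t60030A at 63.18 FPKM in ΔhepA replicate 1. Each was listed at 0 in the other 8 libraries. Their transcripts, of 141 and 142 bases, are shorter than the length classes given above. With a single value above 0 per gene no step can be read, so each value may rest on 1 fragment. AKAW2_10104S, with a transcript of 177 bases, stood at 24.06 FPKM in ΔlaeA replicate 1 and at 0 elsewhere.

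Limma's contrast of ΔlaeA with ΔhepA gave no call among silent genes. Only 152 of the 2420 passed the filter of 1 FPKM in at least 3 libraries, and they passed through the deletion libraries alone. The SE also draws on the control libraries, which the rule held under 1 FPKM, so it may be too small for these genes. Limma called 0 of the 152, with the lowest adjusted p at 0.165, while it called 5 of the 10009 in the fit (0.05%), 2 higher (0.02%) and 3 lower (0.03%) in ΔlaeA. At an unadjusted p under 0.05 there were 18 silent genes, and 950 genes in all (9.49%). No direction is read from the 18, since a gene can pass the filter through the strain where it is high. The 3 ΔlaeA libraries were all above the 3 ΔhepA libraries in 44 silent genes and all below them in 50, patterns that 6.19% and 4.12% of all genes away from the ends held. Without ΔlaeA replicate 1 limma called 4 silent genes, AKAW2_11701A, AKAW2_30784S, AKAW2_70888S and AKAW2_80496A, among 269 genes in all. A fit on the deletion strains alone called 0 silent genes.

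Only part of the 64 silent genes with a symbol were grouped by role, after their values were seen. Of the 64, 48 were under 1 FPKM in all 9 libraries and 14 were listed at 0 in all 9. Only tfb5 reached 5 FPKM in any deletion library. At 2 FPKM or more in any deletion library there were 5, namely tfb5, mfs56, xlnD, erg4A and UGD1. In no role group were erg4A (2.06 FPKM in ΔhepA replicate 2) and UGD1 (2.24 in ΔlaeA replicate 2). Mating and meiosis contributed 5 genes. MAT1-2-4, a gene of the mating-type locus, was listed at 0 in every library, and preB, a pheromone receptor gene, was listed at 0 in 8 libraries and at 0.33 FPKM in ΔlaeA replicate 2. DMC1, the meiotic recombinase, stood at 0, 0.3 and 0.25 FPKM in the control, 0.74, 0.56 and 0 in ΔhepA and 1.83, 0.77 and 0.98 in ΔlaeA. MSH4 and MSH5, meiotic relatives of mismatch repair proteins, stayed at or under 1.68 and 1.29 FPKM.

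The silent genes of secondary metabolism with a symbol stayed low in both strains. These 9 were VRTR1, DEP5, fqzB, pyr8, encA, tpcM, tpcJ, CABA1 and ABA3, and their highest value in any deletion library was 1.14 FPKM (VRTR1 in ΔlaeA replicate 2). DEP5 and ABA3 were listed at 0 in all 9 libraries. The polyketide synthase gene encA, whose transcript has 5406 bases, stayed at or under 0.4 FPKM. The pigment genes pksP, the polyketide synthase of conidial melanin in Aspergillus fumigatus, and abr1, a multicopper oxidase of the same pathway there, stayed at or under 0.76 FPKM. For pksP the control values were 0.61, 0.6 and 0.43 FPKM, those of ΔhepA 0.42, 0.76 and 0.52 and those of ΔlaeA 0.37, 0.17 and 0.07, so every ΔlaeA library was below every other library, all at under 1 FPKM.

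In transport and polymer breakdown a gene each passed 2 FPKM in at least 1 library. Among 11 transport genes this was mfs56, of the major facilitator type, at 0.61, 0.55 and 0.7 FPKM in the control, 1.79, 3.48 and 2.73 in ΔhepA and 2.37, 1.41 and 0.45 in ΔlaeA. All ΔhepA libraries were above the control, and ΔlaeA overlapped it. For xlnD, the beta-xylosidase that cleaves xylose from xylan fragments, the values were 0.42, 0.7 and 0.9 FPKM in the control, 0.86, 1.33 and 0.71 in ΔhepA and 1.82, 2.27 and 1.73 in ΔlaeA. Here the ΔlaeA libraries were all above the other 6, with means of 1.94 ± 0.289 FPKM in ΔlaeA and 0.673 ± 0.241 in the control (SD, n = 3). The difference from ΔhepA did not pass limma's test (log2 difference 0.59, SE 0.32, adjusted p = 0.594). The polygalacturonase gene pgxB was listed at 0 in 7 libraries, and CHIT42, a chitinase gene, in all 9.

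LIG4, which encodes the DNA ligase of non-homologous end joining, was listed at 0 in all 9 libraries on a transcript of 3030 bases. A gene that is not transcribed and a gene that is missing from all 3 strains cannot be told apart from these values.

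The gene lists give the setting. None of the 17 chromatin and velvet regulators matched by symbol was silent in the control, and limma called 0 of them in each of the 3 contrasts (at an unadjusted p under 0.05, 1 in ΔhepA and 4 in ΔlaeA against the control and 0 between the deletion strains, where 10.4%, 21.6% and 9.49% of all tested genes passed). Over all genes tested it called 0.05% higher and 0.27% lower in ΔhepA, and 0.17% higher and 0.919% lower in ΔlaeA, against the control. Of 16 listed secondary metabolite genes 3 were silent (VRTR1, DEP5 and pksP), 0 were switched on, and 1 of the 12 tested rose in ΔhepA by limma (nscA, a polyketide synthase gene by name). The list was matched by the start of the symbol, so not all of its members need belong to secondary metabolism (FUM1, for example, names fumarase in yeast). Of 7 conidiation markers 0 were silent and 1 rose in ΔlaeA (CON10, limma). Their summed level was 460.8 to 499.6 FPKM in the control, 489.3 to 728.1 in ΔhepA and 659.2 to 821.9 in ΔlaeA, and most of it came from fluG and CON10. The markers did not move together: abaA, a transcription factor needed for conidiation, had 12.35, 23.55 and 35.29 FPKM in the control, 16.63 to 25.91 in ΔhepA and 7.62, 4.28 and 4.71 in ΔlaeA. In the 3 libraries that lie apart, ΔlaeA replicates 2 and 3 and ΔhepA replicate 2, wetA, medA and vosA were below every control library. In ΔlaeA replicate 1 they were not, at 13.54, 69.42 and 19.07 FPKM. By contrast fluG was above every control library in the 3 libraries that lie apart. The gene brlA, at 1.05 to 1.32 FPKM in the control, stood at 1.64, 3.77 and 2.06 in ΔlaeA and 0.99 to 2.4 in ΔhepA. The part of conidiating cells in the ΔlaeA values above was not tested. In bulk samples fewer expressing cells and less RNA per cell cannot be told apart.

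Silent genes also sat at the edge of other groups. AKAW2_31318A, on chromosome 3 close to FSL5, stood at 0.39, 0.65 and 0.74 FPKM in the control, 0.53, 1.43 and 1.5 in ΔhepA and 1.13, 2.23 and 3.19 in ΔlaeA. FSL5 and its neighbour AKAW2_31315S are among the genes just outside the rule that were at 5 FPKM or more in ΔlaeA. FSL5 had 2.26, 2.25 and 1.18 FPKM in the control, 1.83, 13.68 and 9.68 in ΔhepA and 9.97, 23.68 and 67.92 in ΔlaeA. The remaining gene of that kind, AKAW2_51339S on chromosome 5, stood at 1.21 to 2.25 FPKM in the control, 2.21 to 4.28 in ΔhepA and 5.45 to 10.25 in ΔlaeA, so that every ΔlaeA library was above the other 6. On chromosome 8 AKAW2_80653S, next to nscR, was at 6.04 FPKM in ΔhepA replicate 3 and 8.54 in ΔlaeA replicate 2 and at 0 elsewhere.

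The mirror rule, genes at 5 FPKM or more in every control library and under 1 FPKM in all 3 libraries of a deletion strain, found few genes as well. Of 7107 genes 2 were switched off in ΔhepA (0.0281%) and 5 in ΔlaeA (0.0704%). Those in ΔhepA were AKAW2_50495A (19.25, 21.23 and 5.37 FPKM in the control, listed at 0 in ΔhepA) and AKAW2_11681A (11.33, 5.41 and 5.18 against 0.73, 0.83 and 0.77). AKAW2_50495A has a transcript of 231 bases, and in that length class 5 FPKM rests on about 1.3 fragments. In ΔlaeA they were AKAW2_10350A, AKAW2_51852A, AKAW2_60103A, AKAW2_81007A and AKAW2_31419A, which carries the symbol DCW1_2. AKAW2_81007A stood at 6.2, 10.38 and 19.81 FPKM in the control and 0.86, 0.62 and 0 in ΔlaeA, and DCW1_2 at 6, 8.8 and 14.7 against 0.72, 0.81 and 0.68. In ΔhepA both lay between, at 2.55 to 4.15 and 1.03 to 1.99 FPKM.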

How the data were processed

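The authors deposited 1 table of FPKM values from RSEM, 1 column per library. Per the labels' protocols, poly(A) RNA was selected and libraries were stranded. The submitters' processing notes list RSEM 1.3.1, featureCounts 2.0.1, STAR 2.7.9a, cutadapt 3.7, Trimmomatic 0.39, Trim Galore 0.6.7 and FastQC 0.11.9 and state no role for them. In the sources used here the build is not given. All 12941 identifiers matched the reference gene table (starts and ends equal), the source of symbols and biotypes. Read totals were not used here, so intervals for low values are not given; relative depth came from FPKM steps between 0.1 and 1.2.

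Members and lists were chosen with earlier results of these data known. The 10009 genes that reached 1 FPKM in 3 or more libraries were fitted as log2(FPKM + 1) with limma 3.58.1 (R 4.3.3), using a mean per group over 9 libraries, a mean trend and Benjamini-Hochberg adjustment (two-sided, threshold 0.05). This scale understates changes of low genes. The fit was tested on simulated data. Per-library counts were compared by exact permutation. Named genes were those switched on with their neighbours, silent genes called between the deletion strains, the 3 nearest each threshold per strain, and those switched off. Other names were chosen after their values were seen. Libraries were not paired by replicate number in the main fit, and whether the numbers mark pairs was not settled. Protein signatures, planned for the silent genes, were not analysed here. Alternatives were other thresholds for silent and on, other distances, median-ratio, quantile and TPM scaling, pseudocounts, filters, a fit on the deletion strains alone, no trend, a replicate block and libraries left out. Counts were made in pandas 2.3.3 and numpy 2.4.6, permutation tests in scipy 1.17.1 and plots in matplotlib 3.10.9, under Python 3.11.15.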

Additional observations from a re-analysis of the deposited data

Results flagged for a closer look

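Limma's contrast of ΔlaeA with ΔhepA separated the strains for 2 of the genes switched off in ΔlaeA. AKAW2_10350A on chromosome 1 stood at 15.24, 21.98 and 10.42 FPKM in the control, 8.06, 10.05 and 13.5 in ΔhepA and 0.24, 0.7 and 0 in ΔlaeA (adjusted p = 0.0167). AKAW2_60103A on chromosome 6, with a transcript of 243 bases, stood at 5.25, 11.59 and 8.53 FPKM in the control, 12.89, 10.12 and 46.25 in ΔhepA and was listed at 0 in ΔlaeA (adjusted p = 0.0167). Neither call held under every alternative: with a pseudocount of 5 the adjusted p were 0.0797 and 0.0932, without ΔlaeA replicate 2 both were 0.0627, and without ΔlaeA replicate 3 both were 0.0761. AKAW2_10350A also lost it without ΔhepA replicate 2 (0.0862) or 3 (0.151), and AKAW2_60103A in a fit on the deletion strains alone (0.0612). Lower expression and removal of the gene cannot be told apart from these values. Groups of 3 libraries were not screened for single libraries far from the others.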

How the results depend on the processing

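The number of switched-on genes in ΔhepA and ΔlaeA was the same under a silent threshold of 0.5 FPKM, other distances from the ends, median-ratio and TPM scaling. With silent set under 2 FPKM, 2 genes were on in ΔhepA (AKAW2_50705A and AKAW2_50707S), and 6 and 13 were off in ΔhepA and ΔlaeA; under 0.5 FPKM 1 and 2 were off. With on set at 2 FPKM, 3 and 7 were on and 9 and 18 off. At 10 FPKM, 0 were on in ΔlaeA, and 0 and 1 were off. Median-ratio scaling left 0 and TPM 1 off in ΔhepA. Chosen after seeing the data, on in at least 2 libraries gave 4 and 10 (1 in both). With silent under 2 and on at 2 FPKM, 20 and 30 were on (4 in both), 47 and 77 off, and 3 of the 20 lay side by side, AKAW2_50705A to AKAW2_50707S.

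Without the 3 libraries apart, ΔlaeA is replicate 1 alone, so its counts rest on 1 library, and limma assumes that it varies like the other groups. In that setting 2 and 6 genes were on (1 in both, tfb5), 12 were off in ΔlaeA, the differences in silent genes at 1 and 5 FPKM turned to -1.5 and -3.0, and limma called 0 genes between the deletion strains, with AKAW2_10350A at -3.21 on the log2 scale against -3.14 with all libraries. Leaving out 1 library at a time gave 2420 to 2687 silent genes, 0 to 2 on in ΔhepA, 1 to 9 on in ΔlaeA, 2 to 6 off in ΔhepA and 5 to 14 off in ΔlaeA. The differences ran from 24.0 to 81.3 and from 5.7 to 19.3 genes, and limma's calls from 1 to 269, the highest without ΔlaeA replicate 1. The 9 genes on in ΔlaeA also came without that library. Without control replicate 2 AKAW2_70887S, without control replicate 3 AKAW2_50202A and without ΔlaeA replicate 2 AKAW2_21015A joined AKAW2_30784S. In ΔhepA, AKAW2_60793A was on without replicate 1, tfb5 and AKAW2_60122A without replicate 2, and AKAW2_50706S without replicate 3. Limma called 1 gene with a pseudocount of 5.

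With the replicate number as a block limma called 1 gene between the deletion strains instead of 5. AKAW2_10350A and AKAW2_60103A lost the call (adjusted p = 0.0663 each, at the same differences of -3.14 and -4.28), and AKAW2_70878A, AKAW2_70880A and AKAW2_70887S passed against the control in ΔlaeA (lowest adjusted p = 0.0218). The deviations of same-numbered libraries correlated between -0.22 and 0.42. The cause of these changes was not tested. At these depths a short gene at 5 FPKM rests on a few fragments, so changes of short silent genes are not detectable with confidence.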
